A study of Mus musculus with 9 samples.

Results

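HOXA13 binding was compared between wild type (wt) and the 542 line in distal forelimb cells of mouse embryos at E12.5. The comparison used 5 of the 9 libraries of the study, 3 HOXA13 libraries from wt and 2 from 542, each deposited as a list of CUT&RUN peaks. Intervals of the 5 lists that overlapped by at least 1 bp were merged into 138428 sites, where all 9 lists gave 193935. Chromosome 2 from just before the insertion site to its end was left out of every list, because the mutant genome renumbers it. A site was kept when all 5 lists called it, and 27075 sites were (19.6%). It was called only in wt when the 3 wt lists and neither 542 list held it (584 sites, 0.422%), and only in 542 when both 542 lists and no wt list held it (8228 sites, 5.94%).

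HOXA13 and HOXD13 are homeodomain transcription factors at the 5′ end of the HoxA and HoxD clusters. They pattern the digits and bind a shared AT-rich consensus, and HOX13 proteins also act at limb enhancers far from genes. CUT&RUN maps binding by tethering micrococcal nuclease to an antibody on the protein and sequencing the fragments it releases.

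The wt embryos and the 542 embryos shared the B6CBAF1 strain, the stage, the tissue and the anti-HOXA13 antibody. The 542 embryos were homozygous for the II1 T-DOM transgene, in which the enhancer II1, the HBB promoter and the lacZ reporter sit in T-DOM, the telomeric regulatory domain of HoxD. Both genotypes carried native II1 in C-DOM, on the centromeric side. Each library came from pooled cells of several embryos, so p-values measure the spread between these pools. The wt reads were mapped on mm10 and the 542 reads on the mutant genome, so the genotype and the mapping genome cannot be told apart. Both 542 lists held a strong interval on the insert, a sequence order that mm10 lacks, so wt lists could hold none there and their labels were not checked by it. Peak lists hold no expression values, and the tissue label was not tested against marker genes.

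Depth lay between 44.6 and 63.9 M read ends per HOXA13 library. The wt replicate 3 list stood apart in strength, with 7282 intervals at a fold enrichment of 5 or more against 15640 to 35589 in the other 4 lists. The study reports longer reads for this library than for the others of the comparison. The part of read length in its lower strength was not tested. Fold enrichment is the pileup of read ends at a summit over the local background. Base composition also divided the libraries. Sites that no other HOXA13 list held averaged 50.0% and 52.8% G+C around the summit in wt replicates 1 and 2, but 39.6% in wt replicate 3, 39.0% in 542 replicate 1 and 39.3% in 542 replicate 2. These libraries bear on every result below, and values without wt replicate 3 are given beside those they change.

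The sequences at the strongest sites of each class show what the summits looked like. Each is the 100 bp around the main summit, 5′ to 3′ on the plus strand of GRCm38, the assembly of mm10, and capitals mark the HOX13 consensus. The consensus was searched as CCNATAAA, CCNGTAAA, CTNATAAA and CTNGTAAA on both strands, and windows of the same length 1000 bp away held it at 5.01% of all merged sites. The first 3 were kept, the next 3 were called only in wt, and the last 3 were called only in 542.
Cic site, chr7:25267998-25268097: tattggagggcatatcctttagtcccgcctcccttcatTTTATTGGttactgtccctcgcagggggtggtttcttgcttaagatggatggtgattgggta
Fbrs site, chr7:127478403-127478502: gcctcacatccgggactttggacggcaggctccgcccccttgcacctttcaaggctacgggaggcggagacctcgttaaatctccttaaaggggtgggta
Gpr84 site, chr15:103305296-103305395: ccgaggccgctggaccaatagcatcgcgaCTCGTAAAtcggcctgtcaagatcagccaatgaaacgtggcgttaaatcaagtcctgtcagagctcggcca
Pik3r1 site, chr13:101338455-101338554: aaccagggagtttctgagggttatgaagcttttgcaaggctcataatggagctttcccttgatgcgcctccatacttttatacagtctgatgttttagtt
Spry2 site, chr14:105588897-105588996: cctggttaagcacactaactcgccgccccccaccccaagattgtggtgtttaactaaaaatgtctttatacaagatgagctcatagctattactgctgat
Rnf144a site, chr12:25978633-25978732: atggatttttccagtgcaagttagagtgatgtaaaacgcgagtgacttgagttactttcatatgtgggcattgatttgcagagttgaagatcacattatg
Olfr697 site, chr7:106733884-106733983: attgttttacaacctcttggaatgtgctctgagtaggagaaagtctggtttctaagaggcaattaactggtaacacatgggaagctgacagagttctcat
Slc16a7 site, chr10:125619574-125619673: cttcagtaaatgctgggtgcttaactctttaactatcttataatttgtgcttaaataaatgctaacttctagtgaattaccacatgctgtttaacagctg
Adam26b site, chr8:43473904-43474003: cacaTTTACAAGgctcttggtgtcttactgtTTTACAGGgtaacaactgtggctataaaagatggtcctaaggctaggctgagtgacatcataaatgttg
The window near Adam26b held 2 matches, those near Cic and Gpr84 held 1 each, and the other 6 windows held none.

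Most merged sites were not shared by all libraries of a genotype. Sites held by a single list numbered 20009 for 542 replicate 1, 16456 for wt replicate 1, 9363 for wt replicate 3, 8598 for wt replicate 2 and 5041 for 542 replicate 2. A further 9013 sites were called in every list but wt replicate 3. Just outside the class rule, 3461 sites were called in 2 wt lists and no 542 list, and 1186 in 3 wt lists and 1 542 list. On the 542 side, 25050 sites were called in 1 542 list and no wt list, and 10421 in both 542 lists and 1 wt list.

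**Figure D1:**
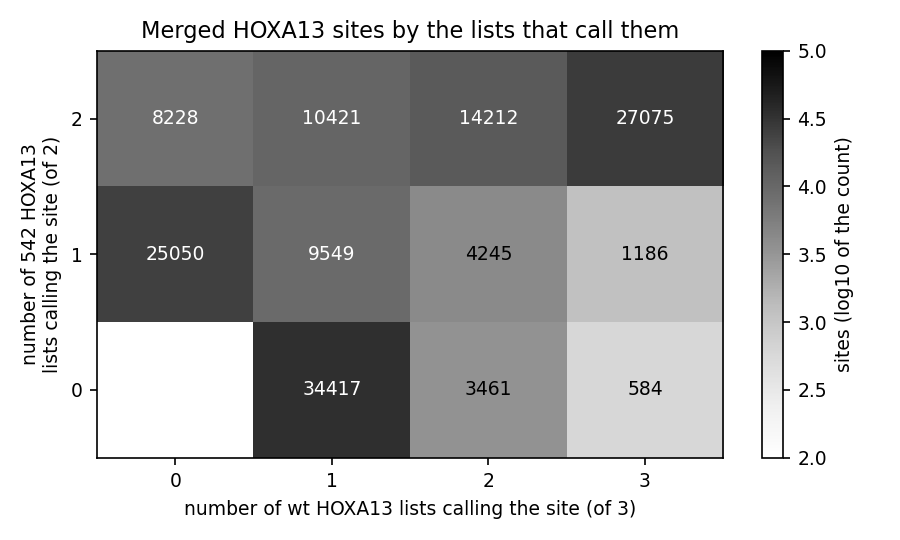
Number of merged HOXA13 sites by how many of the 3 wt lists (x axis) and of the 2 542 lists (y axis) called them; shading is log10 of the count and the blank cell holds no sites. The corner of sites called only in 542 held 8228 sites and the corner of those called only in wt held 584.

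The sites called only in 542 outnumbered those called only in wt 14.1 to 1 in these lists, and this ratio moved with the lists. The rule asks for 3 calling lists in wt and 2 in 542, so the 2 classes are not held to the same number of calls. With the same number of intervals from every list, the top 20000 by −log10 p, there were 752 sites called only in wt and 1470 called only in 542, a ratio of 1.95. With 2 lists on each side the ratio was 4.21 without wt replicate 3 (2679 and 11272 sites), 4.90 without replicate 2 and 20.3 without replicate 1. Without 542 replicate 2 there were 875 and 28237 sites. The class counts are descriptions of calls, with no test. An interval of the other genotype lay within 1 kb of 16.3% of sites called only in wt and of 14.0% of those called only in 542. The nearest interval of a 542 list lay a median of 4.96 kb from a site called only in wt, and the nearest wt interval lay 6.32 kb from a site called only in 542.

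In every list, kept sites had a higher median fold enrichment than the sites called only in that genotype. Calls depend on enrichment over background, so the class rule itself favours this order and it is no independent result. Their median fold enrichment was 6.75, 4.98 and 3.85 in wt replicates 1, 2 and 3, and 7.35 and 6.58 in 542 replicates 1 and 2. In wt, sites called by no 542 list had medians of 3.76, 3.15 and 3.11 in the 3 wt lists, and sites called only in 542 had medians of 3.64 and 3.40. The lowest −log10 q among sites called only in 542 was 1.31 and 1.30 in the 2 lists, close to the threshold at which peaks were called. At sites called in 1 wt list and both 542 lists, just outside the rule, the 542 medians were 4.15 and 3.63.

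The strongest kept sites lay near or in genes of varied function. A site of 1090 bp lay in an intron of Cic, the gene of the transcriptional repressor Capicua, 0.344 kb from a start of Cic. Its fold enrichment was 16.0, 15.5 and 20.8 in wt and 15.8 and 14.0 in 542. A site 0.746 kb from the start of Fbrs gave 18.2, 17.3 and 17.3 in wt and 17.97 and 17.2 in 542. A site 5.27 kb from Gpr84, a receptor for medium-chain fatty acids, in an intron of Gm49482 gave 18.6, 18.02 and 7.82 in wt and 15.3 and 16.0 in 542. Values of the genotypes overlapped at all 3 sites, and wt replicate 3 was the lowest library near Gpr84. The other 3 of the 6 strongest lay in introns of Ntm, a neural cell adhesion protein, and Rgs9, a regulator of G-protein signalling, and between genes near Asprv1, a skin protease. All 6 were called in all 3 wt HOXD13 lists and in the 542 HOXD13 list.

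The strongest sites called only in wt lay 63.8 to 436.5 kb from the nearest protein-coding start and were weaker than the strongest kept sites. The first, chr13:101338098-101339103, lay in an intron of 4932411K12Rik, 354.1 kb from the start of Pik3r1, a regulatory subunit of PI3-kinase. Its fold enrichment was 10.7, 4.47 and 5.90 in wt replicates 1, 2 and 3, and no 542 list called it. The second, chr14:105588441-105589594, was intergenic and 307.9 kb from Spry2, a feedback inhibitor of FGF receptor signalling, with 4.36, 4.71 and 2.29 in wt. A site 436.5 kb from Rnf144a, a ubiquitin ligase, gave 8.00, 4.01 and 5.29. The highest wt library was replicate 1 at the Pik3r1 and Rnf144a sites and replicate 2 at the Spry2 site.

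The other 3 of these 6 sites lay near Lyplal1, Tead1 and Tyw5. The intergenic site near Lyplal1 had fold enrichments of 7.73, 4.98 and 6.35 in wt replicates 1, 2 and 3. An intronic site of Tead1, a DNA-binding partner of the Hippo pathway, had 3.84, 3.77 and 2.58. The intergenic site near Tyw5, a tRNA-modifying enzyme, had 7.68, 6.0 and 8.25, the highest in replicate 3. All 6 sites were called in at least 1 wt HOXD13 list, and the Tead1 and Tyw5 sites were also called in the 542 HOXD13 list.

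Median fold enrichment was 3.64 and 3.40 over all sites called only in 542, and 3.76, 3.15 and 3.11 over those called only in wt. The 6 strongest were drawn from 8228 sites in 542 and 584 in wt, under rules of 2 and 3 lists. Their values therefore do not compare the strength of the classes. Among the 6 strongest called only in 542, fold enrichment ran from 5.59 to 13.9. The first, chr7:106733513-106734526, was intergenic, 8.02 kb from Olfr697, an odorant receptor gene, with 13.9 and 11.4 in 542 replicates 1 and 2. Its pileup was 163 and 79 read ends, and no wt list called it. The site chr10:125619124-125620194, 230.2 kb from Slc16a7, a monocarboxylate transporter, gave 9.33 and 9.82. The site chr8:43473454-43474408, 54.2 kb from Adam26b, gave 11.8 and 9.01. Replicate 1 was the higher at the Olfr697 and Adam26b sites and replicate 2 at the Slc16a7 site.

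An intronic site of Gpr158, an orphan receptor of neurons, gave 10.7 and 9.01 in the 2 542 lists. A site 3.85 kb from Arhgap5, a GTPase-activating protein, gave 7.45 and 5.59. An intronic site of B3galt5, a galactosyltransferase, gave 10.2 and 9.72. All 6 of these sites were called in the 542 HOXD13 list and none was called in a wt HOXD13 list.

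**Figure D2:**
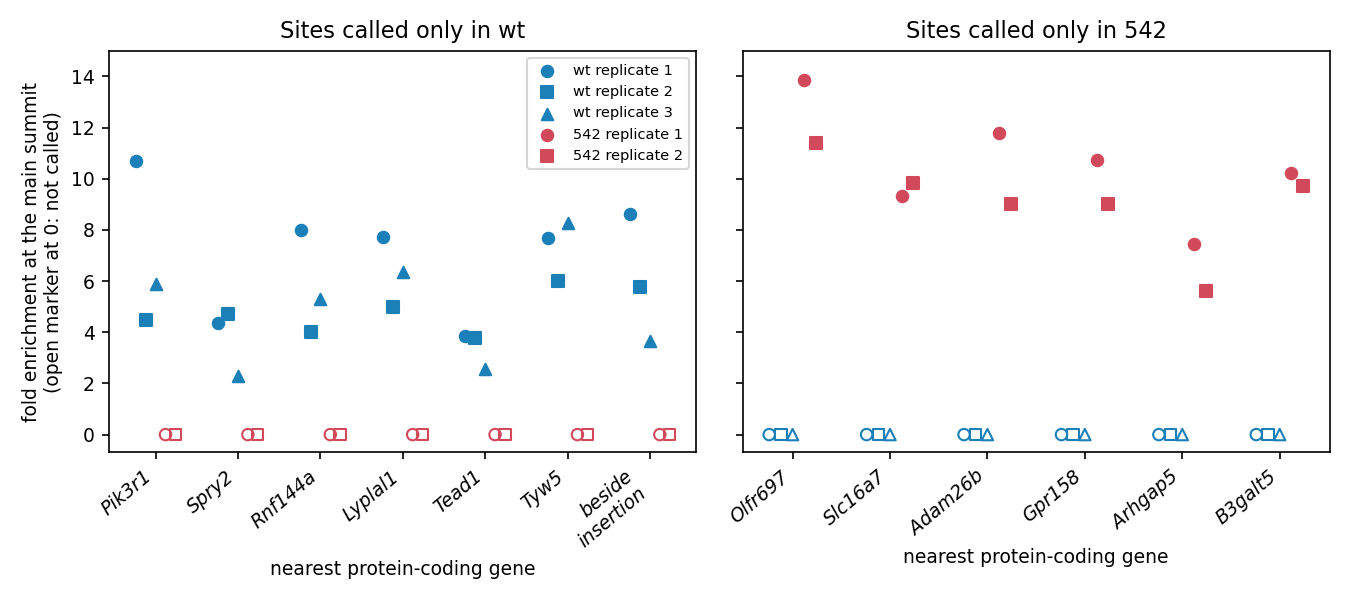
Fold enrichment at the main summit (y axis) in each HOXA13 library at the 6 strongest sites called only in wt (left, with the site beside the insertion added) and the 6 called only in 542 (right), by nearest protein-coding gene; open markers at 0 mark lists that did not call the site. Values called in 542 ran from 5.59 to 13.9 and values called in wt from 2.29 to 10.7.

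Some sites passed a stricter rule, a fold enrichment of 5 or more in every list of one genotype and no interval of any strength in the other. In 542, 497 sites passed it, and in wt 3 did. The 3 were the Tyw5 site, a site in an intron of AC123621.1 and an intergenic site 177.3 kb from Mdfic. The site in AC123621.1 lay 211.5 kb from Emx2, a homeobox gene of brain and urogenital development. At the Emx2 site the wt lists gave 8.39, 5.30 and 6.47, and at the Mdfic site 6.37, 5.14 and 5.23. These 3 were named after their values were seen.

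The class called only in 542 was AT-rich and rarely at promoters. The 100 bp around their summits averaged 36.7% G+C, against 44.2% at kept sites, 43.4% at sites called only in wt and 43.6% at all merged sites. Of the 8228 sites 208 (2.53%) had their main summit within 1000 bp of a protein-coding start, against 19.5% of kept sites, 8.56% of sites called only in wt and 10.5% of all sites. A further 46.6% lay in introns and 48.9% outside protein-coding genes. Repeat-masked bases made up 15.2% of their windows and 9.55% of those of kept sites. The median distance to a protein-coding start was 58.7 kb for sites called only in 542, 56.9 kb for those called only in wt and 39.2 kb for kept sites. Without wt replicate 3 the mean G+C was 36.3% at sites called only in 542 and 49.5% at sites called only in wt, and the promoter shares were 2.42% and 16.3%. With the top 20000 intervals of each list these G+C means were 38.1% and 43.2%. The 3044 sites called in both 542 lists and, in wt, only in replicate 3 shared these traits. They averaged 35.2% G+C, with 2.14% at promoters. The values were 42.4% and 8.56% where the wt list was replicate 1 instead, and 40.8% and 6.33% where it was replicate 2. The base composition of single-list sites, given above, differed between libraries in the same direction for replicates 1 and 2, and its part in these values was not tested.

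The HOX13 consensus was found within 50 bp of the summit at 34.3% of sites called only in 542, 29.4% of kept sites and 17.8% of sites called only in wt. All merged sites gave 22.1%, and windows 1000 bp away gave 5.61%, 4.96% and 4.79% for the 3 classes in the same order. Matches at sites called only in 542 reached 5.41 per kb near the summit and 0.649 per kb at the edges of the plotted window. At sites called only in wt they reached 2.74 per kb near the summit. Without wt replicate 3 the shares were 32.5% for sites called only in 542 and 14.0% for those called only in wt.

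**Figure D3:**
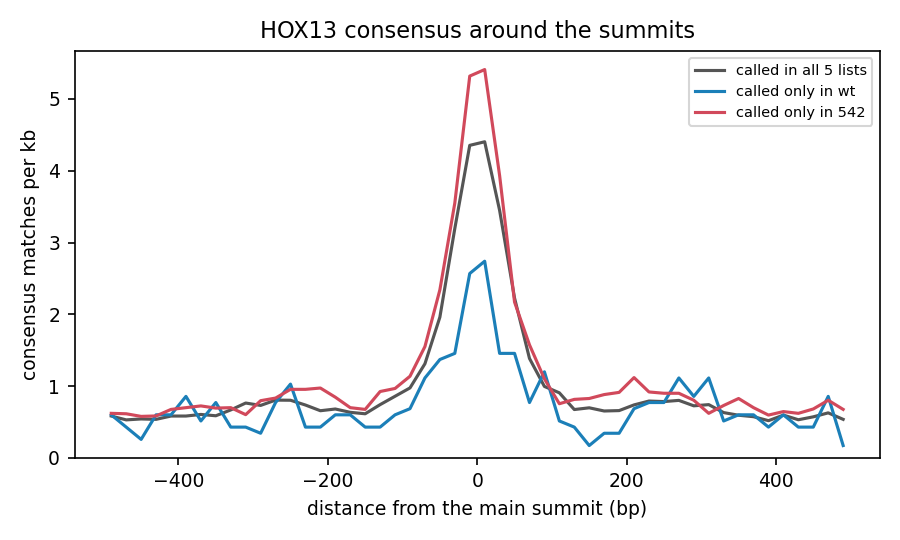
Matches to the HOX13 consensus per kb (y axis) in 20-bp bins against distance from the main summit in bp (x axis) for the 3 classes of sites. All 3 lines peaked at the summit, at 5.41 per kb for sites called only in 542, 4.40 for kept sites and 2.74 for sites called only in wt.

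At kept sites the consensus could be compared library by library, since each library has its own summit there. The share of kept sites with a match was 28.9%, 28.3% and 22.4% in wt replicates 1, 2 and 3, and 31.6% and 30.2% in 542 replicates 1 and 2. Both 542 values lay above all 3 wt values, and wt replicate 3 was the lowest. The means were 26.5% ± 3.57 (SD, n = 3) and 30.9% ± 0.991 (SD, n = 2). The difference of 4.36 points did not pass a two-sided exact permutation test (p = 0.3, where 0.1 is the smallest this design allows; adjusted p = 0.3 over 3 tests), and it was 2.24 points without wt replicate 3.

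The promoter share of whole lists was lower in 542. It was 15.1%, 17.6% and 13.8% of intervals in wt and 12.4% and 13.2% in 542, with both 542 values under all 3 wt values. The difference was −2.73 points (p = 0.2, two-sided exact permutation test; adjusted p = 0.3). With the top 20000 intervals the shares were 18.8%, 18.6% and 16.1% in wt and 16.5% and 16.0% in 542, and wt replicate 3 lay between the 542 values.

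HOXD13 lists took no part in the class rule. The share of sites called only in 542 that a HOXD13 list also called was 1.24%, 7.60% and 3.94% in wt HOXD13 replicates 1, 2 and 3, against 14.9%, 37.8% and 22.4% of all merged sites. The 542 HOXD13 library, labelled E11.5, called 62.5% of them, against 52.1% of all merged sites. For sites called only in wt it was 17.1%, 68.0% and 46.9% in the wt HOXD13 lists and 24.0% in the 542 HOXD13 list. Kept sites were called at 58.5%, 90.1% and 70.7% in wt and 91.1% in 542.

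Every wt HOXD13 list held a larger share of the sites called only in wt than of those called only in 542. The differences were 15.9, 60.4 and 43.0 points, with a mean of 39.7 ± 22.4 (SD, n = 3; p = 0.25 by an exact permutation of the signs, two-sided, the smallest that 3 lists allow; adjusted p = 0.3). The 542 HOXD13 list gave −38.5 points, a value of 1 library with no test. It was 0.166 points without 542 HOXA13 replicate 1 (47.7% against 47.5%) and −5.32 points with the top 20000 intervals of each HOXD13 list. Leaving out 542 replicate 1 redefines both classes. The sites called only in wt then include 895 that replicate 1 called, and those called only in 542 include 5041 held by replicate 2 alone. Of the sites called only in 542, 4470 (54.3%) were called in the 542 HOXD13 list and in no wt HOXD13 list, and 2817 (34.2%) in no HOXD13 list. Of the sites called only in wt, 357 (61.1%) were called in a wt HOXD13 list and not in the 542 one. The 542 HOXD13 reads were mapped on the same mutant genome as the 542 HOXA13 reads, and stage and genotype differ together for this list, so these cannot be told apart.

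**Figure D4:**
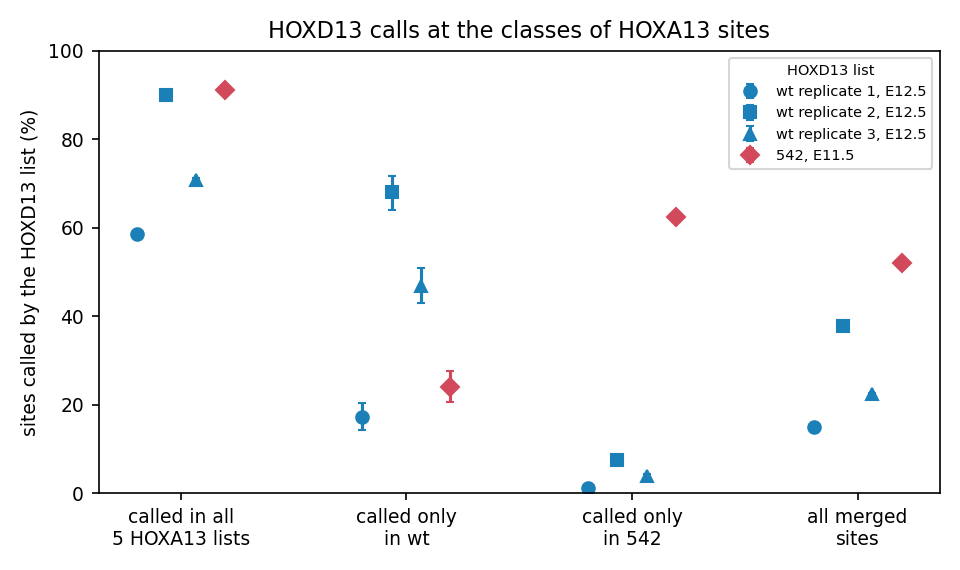
Share of sites called by each HOXD13 list (y axis, percent, with Wilson 95% intervals for counting error) for the 3 classes of HOXA13 sites and all merged sites. The 542 list lay at 62.5% for sites called only in 542, where the 3 wt lists lay between 1.24% and 7.60%.

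Differences in strength at the kept sites were, at the median, about the size of their standard error. Fold enrichments were put on the log2 scale, quantile normalised and compared with limma over all 27075 kept sites. No site passed an adjusted p of 0.05 (0% of 27075; lowest adjusted p = 0.301), and 3103 sites (11.46%) had an unadjusted p under 0.05. The median absolute log2 difference was 0.22 and the median standard error 0.24. Without wt replicate 3, 1233 sites were higher in 542 (4.55%) and 1239 lower (4.58%), a balance that quantile normalisation favours. The same sign was found with all 5 libraries at 99.6% of these 2472 sites. That fit reuses the libraries on which the sites were chosen, so this share is no independent check. On the unnormalised scale both 542 values lay above all 3 wt values at 35.7% of kept sites and below them at 1.68%. The median log2 difference over all kept sites was 0.40 on that scale. These shares therefore include a shift of whole libraries and do not count changes at single sites.

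The 6 sites with the lowest adjusted p in each direction without wt replicate 3 are described next, chosen after their values were seen. An intergenic site 454.4 kb from Sox9, the master regulator of cartilage formation, had a fold enrichment of 13.3, 7.62 and 3.53 in wt replicates 1, 2 and 3 and of 2.68 and 2.94 in 542. The wt values were all above the 542 values, although replicate 3 was close to them. The log2 difference on the normalised scale was −1.54 ± 0.32 (SE) with limma (adjusted p = 0.301), and −1.96 without wt replicate 3 (adjusted p = 0.00232). The 3 wt HOXD13 lists called this site and the 542 HOXD13 list did not.

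A site 179.9 kb from Cntnap4, a neuronal adhesion protein, had 12.8, 9.49 and 6.98 in wt and 3.06 and 3.8 in 542 (log2 difference −1.75 ± 0.22 (SE), limma adjusted p = 0.301 with 5 libraries and 0.00232 without wt replicate 3). An intronic site of Bmpr1b, a BMP receptor of digit cartilage, had 11.6, 8.35 and 3.01 in wt and 3.12 and 3.35 in 542. There wt replicate 3 lay below both 542 values. The sites in an intron of Ppp1r3a, a glycogen-targeting phosphatase subunit, and near Ncoa7 had the same order, with wt replicates 1 and 2 from 12.4 to 17.0, replicate 3 at 5.60 and 7.07, and 542 from 5.62 to 9.03, above replicate 3 at both. The site 221.3 kb from Fam3c had 9.37, 7.29 and 4.16 in wt and 2.30 and 2.94 in 542.

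In the other direction, an intronic site of Gdnf, a neurotrophic factor, had 8.35, 6.45 and 3.31 in wt and 15.9 and 17.4 in 542 (log2 difference 1.27 ± 0.22 (SE), limma adjusted p = 0.301 with 5 libraries and 0.00232 without wt replicate 3). An intronic site of Fhit had 3.33, 3.48 and 3.68 in wt and 12.4 and 11.9 in 542, and the 3 wt values lay close together. It was called in the 542 HOXD13 list and in no wt HOXD13 list. Near Cenpw, a centromere protein, the values were 3.91, 2.98 and 4.14 in wt and 11.3 and 11.2 in 542. Sites 9.17 kb from Ccnf and 178.8 kb from Akirin2 had 4.47 to 7.09 in wt and 13.8 to 15.6 in 542. The site 136.7 kb from Ankrd55 had 3.98, 3.07 and 8.24 in wt and 11.9 and 10.4 in 542. Replicate 3 was the highest wt value there.

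The windows near Cntnap4 and Akirin2, one from each direction, held the consensus close to the summit and are shown in the same form as above.
Cntnap4 site, chr8:112390088-112390187: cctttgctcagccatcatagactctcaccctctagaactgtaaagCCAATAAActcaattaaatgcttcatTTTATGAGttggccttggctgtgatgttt
Akirin2 site, chr4:34372083-34372182: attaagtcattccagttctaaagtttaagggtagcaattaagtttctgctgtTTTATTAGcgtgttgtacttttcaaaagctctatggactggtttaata
The window near Cntnap4 held 2 matches and that near Akirin2 held 1. The nearest match had its centre 1 bp from the summit near Cntnap4 and 6 bp near Akirin2.

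**Figure D5:**
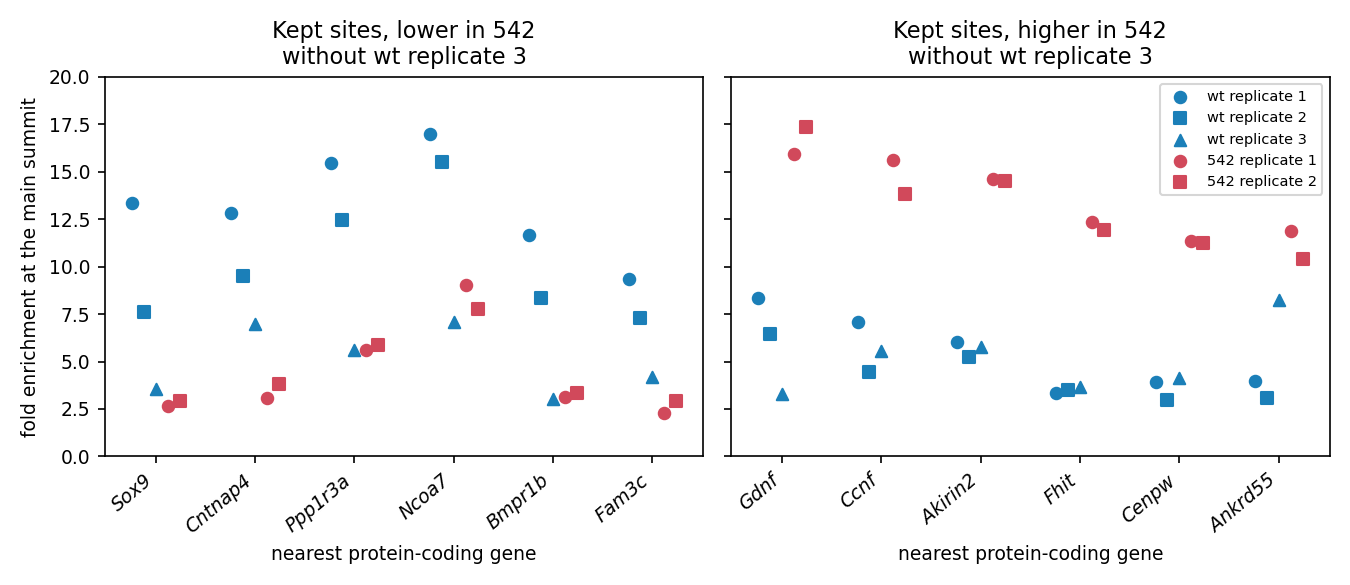
Fold enrichment at the main summit (y axis) in the 5 HOXA13 libraries at 6 kept sites lower in 542 (left) and 6 higher in 542 (right) when wt replicate 3 was left out, by nearest protein-coding gene. At the Sox9 site the wt values were 13.3, 7.62 and 3.53 and the 542 values 2.68 and 2.94.

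Of the kept sites higher in 542 without wt replicate 3, 97.6% were called in the 542 HOXD13 list, and 68.7% of those lower in 542 were, against 91.1% of all kept sites. In the wt HOXD13 lists the shares were 44.9%, 72.3% and 61.2% for the higher sites and 74.8%, 96.8% and 80.9% for the lower ones. The higher sites averaged 38.2% G+C with the consensus at 42.7%, and the lower sites 42.0% with the consensus at 27.8%. These shares describe sites chosen on the HOXA13 lists of replicates 1 and 2.

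Most of the listed genes of limb development had a kept site. Of the 37 limb patterning factors listed, 33 were the nearest protein-coding gene of at least 1 kept site, as were 20 of 22 Wnt genes, 17 of 20 chondrogenesis genes, 15 of 18 FGF genes, 15 of 20 BMP and GDF genes, 12 of 15 Hedgehog genes, 11 of 15 Eph receptors and ephrins and 7 of 10 Hox genes. Over all 21840 protein-coding genes the share was 44.0%. In the contrast lists, 9 of 15 blood and endothelial genes, 7 of 15 neural genes and 6 of 15 muscle genes had a kept site. Limb patterning factors had a median of 29 merged sites per gene against 2 for all genes, so they had more chances of a site of any class.

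As shares of the sites near each list, the classes lay closer to the background. Kept sites made up 35.9% of the 39 sites near the listed Hox genes, 29.2% near BMP and GDF genes, 28.3% near Hedgehog genes and 27.6% near limb patterning factors, against 19.6% of all sites. They made up 24.5% near chondrogenesis genes, 22.8% near Wnt genes, 21.7% near FGF genes and 20.995% near Eph receptors and ephrins. In the contrast lists they made up 24.0% near blood and endothelial genes, 16.4% near muscle genes and 14.5% near neural genes, so the limb and contrast lists overlapped. The share called only in 542 ranged from 2.92% near BMP and GDF genes to 10.3% near Hox genes, which is 4 of 39 sites, against 5.95% over all genes. Each list had 0 to 6 sites called only in wt. The lists' median log2 differences at kept sites lay between −0.13 for the 14 sites near Hox genes and 0.07, against 0.00 over all kept sites.

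At the Hox genes themselves the kept sites included 1 in an untranslated exon of Hoxa9, with 7.12, 6.88 and 4.70 in wt and 6.02 and 6.53 in 542, and 1 in an intron of Hoxa11, with 9.67, 9.29 and 4.08 in wt and 7.66 and 8.13 in 542. Of the 8 sites nearest to Hoxa13, 2 were kept, and of the 8 nearest to Evx2, beside Hoxd13, 6 were. Among the sites called only in 542, that near Hoxd10 had 2.62 and 2.50 and that near Evx2 had 2.32 and 1.79, both weak. No site called only in wt was nearest to a listed Hox gene.

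Signalling genes of the limb had sites of every class. Over all merged sites 19.6% were kept, 0.422% were called only in wt and 5.94% only in 542. Near Gli3, the Hedgehog transcription factor that limits digit number, 20 of 66 sites were kept. Of the others, 1 was called only in wt and 3 only in 542. The site called only in wt, in an intron of Gli3, had 4.54, 2.90 and 2.39, and the strongest called only in 542 had 6.88 and 3.76. Near Fgf10, the mesenchymal FGF of limb outgrowth, 8 of 48 sites were kept, 2 were called only in wt and 5 only in 542. One of those called only in wt lay in an intron of Fgf10, 1.30 kb from its start, with 2.57, 2.43 and 2.16. Near Dkk2, a secreted Wnt modulator, an intronic site had 5.64, 3.65 and 3.86 in wt and no 542 call, and a site 180.3 kb away had 6.38 and 4.19 in 542 and no wt call.

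Near the cartilage genes, 6 of 742 sites were called only in wt (0.809%, against 0.422% of all sites and 1.26%, or 2 of 159, near muscle genes). They included a site 200.3 kb from Hapln1, a link protein of cartilage matrix, with 7.24, 4.64 and 4.03. Another lay 27.2 kb from Osr2, a zinc finger factor of joints, with 4.48, 5.12 and 2.41. Of the 102 sites near Sox5, a partner of Sox9 in chondrocytes, 39 were kept, 1 was called only in wt and 8 only in 542. The strongest of these 8 had 7.17 and 5.39 in an intron of Sox5. A site in an intron of Supt3, 96.3 kb from Runx2, the regulator of bone formation, had 5.79 and 5.54 in 542. A site called only in 542, 158.1 kb from Shox2, a homeobox gene of the limb, had 9.12 and 4.15. Another, 305.5 kb from Sall1, a zinc finger factor of digit development, had 7.02 and 5.01.

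The genes nearest to most sites called only in 542 also had many sites in all. Robo2, an axon guidance receptor, had 19 of its 122 sites in this class, Adgrl3 had 18 of 186, Dlg2 18 of 104, Adgrl2 17 of 249, Flrt2 16 of 159 and Tenm3 16 of 236. These shares ran from 6.78% for Tenm3 and 6.83% for Adgrl2, near the 5.94% of all sites, to 15.6% for Robo2 and 17.3% for Dlg2. Adgrl2, Adgrl3 and Tenm3 were also among the 4 genes with most kept sites, with 51, 46 and 44. The 8225 sites with a nearest gene fell on 4413 genes, of which 2708 had a single one. The 584 sites called only in wt fell on 537 genes, and none had more than 3. The genes with 3 were AW209491, Cdca2, Lyplal1, N6amt1, Pam and Tgfb2.

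All 3 classes were found on every autosome and the X chromosome. Those called only in 542 made up between 4.90% of sites on chromosome 17 and 7.77% on the X chromosome, and sites called only in wt between 0.212% on the X chromosome and 0.594% on chromosome 13. In the HoxD window before the insertion site, 75 of 219 sites were kept, 12 were called only in 542 and 1 was called only in wt.

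That single site lay beside the insertion and is described because of its place, after its values were seen. It spanned chr2:75266198-75266966 in an intron of 2600014E21Rik, and its main summit in wt replicate 1 was 2958 bp from the insertion site. Fold enrichment was 8.63, 5.75 and 3.64 in wt replicates 1, 2 and 3, from pileups of 126 (95% Poisson interval 105 to 150), 52 (38.8 to 68.2) and 33 (22.7 to 46.3) read ends. Neither 542 HOXA13 list called it. Its 100 bp held no match to the consensus.
Site beside the insertion, chr2:75266583-75266682: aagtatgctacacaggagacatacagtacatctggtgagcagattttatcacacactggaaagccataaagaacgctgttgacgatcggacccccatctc
On the same side, 2 sites farther away were called in all 5 lists. At 24790 bp from the insertion fold enrichment was 7.83, 5.39 and 3.47 in wt and 10.6 and 9.93 in 542, and at 16589 bp it was 14.3, 12.2 and 5.60 in wt and 10.8 and 11.6 in 542. A site called only in 542, chr2:75263769-75264158, lay 5572 bp from the insertion with 3.04 and 2.99.

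The local background at the site was 13.7, 8.22 and 8.34 read ends in wt, and the 542 lists give none there. Their nearest summits on the far side had 26.9 at 4818 bp from the insertion in replicate 1, and 21.02 and 12.4 at the site called only in 542. At a summit 66 bp from the insertion it was 73.2 in 542 replicate 1, and at the strong interval on the insert it was 70.1 and 39.1 in the 2 542 lists. The 542 HOXD13 list did call the site beside the insertion, with a pileup of 208 over a local background of 83.8, a fold enrichment of 2.47. The wt HOXD13 lists gave 34 over 9 in replicate 2 and 24 over 6.20 in replicate 3, and replicate 1 did not call it. The part of the local background in the missing HOXA13 calls was not tested.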

How the data were processed

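HOXA13 CUT&RUN libraries (3 wt, 2 from the 542 line) and, for 1 comparison, the 4 HOXD13 libraries were analysed from the deposited peak lists, grouped by their titles. The members and gene lists were chosen with earlier results of these data known. According to the study's methods, reads were trimmed with Cutadapt, mapped with bowtie2 (wt on mm10, 542 on the mutant genome), filtered on a mapping quality of 30, and peaks called per sample with MACS2 without a control library. The sources differ on whether PCR duplicates were removed before peak calling, so pileups and their intervals may or may not include them. Each deposited interval carries a fold enrichment (the ratio of the summit pileup to its local background), a −log10 p-value for that pileup, a −log10 q-value after MACS2's correction, and a whole-number score derived from the latter. The authors also give the summit's offset.

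Rows with the same bounds were joined, and the row with the highest −log10 p gave the main summit. Pileups were recovered from fold enrichment and −log10 p and came out whole, within 0.01 read ends, at 99.9% or more of summits. The genome background gave the depth. Poisson and Wilson 95% intervals cover counting error only. Genes were GENCODE M21 basic on GRCm38, sequences were read from the RefSeq copy of GRCm38, and coordinates are 1-based. One sequence is not reported here.

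Fold enrichments at kept sites were compared with limma (quantile normalisation, Benjamini-Hochberg adjustment over all kept sites), and shares with exact permutation tests over libraries. The procedure was tested on simulated data. Named were the 6 strongest sites of each class by median within-list percentile of −log10 p, up to 4 sites per gene list and class, of which examples are given, and the 5 genes with most sites called only in wt or only in 542, ties included. Other names are marked where they appear. Alternatives were other thresholds, overlaps, normalisations and windows, and each library left out. Python 3.11.15, numpy 2.4.6, pandas 2.3.3, R 4.3.3 and limma 3.58.1 were used.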

Additional observations from a re-analysis of the deposited data

Results flagged for a closer look

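With all 5 HOXA13 lists, the wt HOXD13 lists and the single 542 HOXD13 list differed in opposite directions. The share of sites called by HOXD13 was higher at sites called only in wt than at sites called only in 542 by 15.9, 60.4 and 43.0 points in wt replicates 1, 2 and 3, and lower by the same measure in the 542 list, at −38.5 points. With 1 list in the 542 group this difference was not tested, and it changed with the lists used. The 542 HOXD13 list is labelled E11.5, where the wt lists are labelled E12.5, and was mapped on the mutant genome. It held 112543 intervals, against 22874 to 73394 in the wt HOXD13 lists. Genotype, stage and mapping genome cannot be told apart here. Without 542 HOXA13 replicate 1, where both classes take in further sites, the value of the 542 list was 0.166 points.

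Past the limit on chromosome 2, in data that entered no comparison, both 542 HOXA13 lists held a strong interval on the insert, with fold enrichments of 11.8 and 11.1, and the wt lists were mapped on mm10, which lacks the insert.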

How the results depend on the processing

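Class counts depended on thresholds. With a fold enrichment of at least 5 in every list there were 4822 kept sites, 52 called only in wt and 5078 called only in 542. With a −log10 q of at least 5 there were 16319 kept sites and 230 called only in wt. The top 20000 intervals gave 9490 kept sites and 1470 called only in 542. Requiring a fold enrichment of 5 and absence from the whole lists of the other genotype gave 4822, 3 and 497. A reciprocal overlap of 50% gave 2524 sites called only in wt and 16435 only in 542. Leaving out each HOXA13 library in turn, kept sites ranged from 27366 to 36088, sites called only in wt from 741 to 2679 (most without wt replicate 3; 1793 without wt replicate 2 and 1479 without 542 replicate 1), and sites called only in 542 from 8781 to 28237 (most without 542 replicate 2; 15052 without wt replicate 1 and 13269 without 542 replicate 1). Sites called only in 542 were the more numerous in each of these settings.

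For fold enrichment at kept sites, median centring gave 1 call (lower in 542) and no normalisation gave 3 (higher in 542, where the median difference over all kept sites was 0.40 on the log2 scale). Leaving out each library gave between 0 and 2472 calls, all of them without wt replicate 3. Replicate numbers were shared labels only. With the replicate number as a block 4027 sites were called, 2036 higher and 1991 lower, but replicate 3 has no 542 partner and drops out of that contrast, and deviations of same-numbered libraries correlated at 0.03 and 0.12. For single named sites, 25 comparisons newly passed the threshold with the block, without wt replicate 3 or with median centring. These sites were chosen in the fit without wt replicate 3, so passing there was fixed by the choice. The block takes the same library out of the contrast. Only the pass with median centring, at the Cntnap4 site (limma adjusted p = 0.0389), had wt replicate 3 in the contrast. Other alternatives, with regression on base composition added after seeing the data, gave 0 calls. The differences in consensus, promoter share and HOXD13 calls kept their direction under every alternative run, the last over the wt HOXD13 lists. The value of the 542 HOXD13 list did not: from −38.5 points it went to 0.166 without 542 HOXA13 replicate 1, −5.32 with the top 20000 intervals of the HOXD13 lists, −13.7 at a fold enrichment of at least 5 in them and −22.6 without 542 HOXA13 replicate 2. Leaving out a library gave 2.24 to 5.55, −3.56 to −1.68 and 19.7 to 51.7 points. The cause of these changes was not tested. Calls of 5 libraries with no control limit what absence from a list can show.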
